A study of Mus musculus with 2 samples.

Results

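Middle proximal tubule cells of the mouse kidney were described across all genes in 2 single-cell libraries. Their summed level of Slc5a2, the glucose carrier SGLT2, and the lactate carrier Slc5a12 was intermediate. A barcode was a member when its UMIs (unique molecular identifiers, each standing for 1 captured RNA molecule) met 3 limits, each per 10000 UMIs outside the mitochondrial genes. Members were thus chosen by the measured values of 6 genes. Slc34a1 and Lrp2 together had to reach 25, Slc5a2 and Slc5a12 together had to lie from 2 up to 10, and Cyr61 and Fosb together had to stay under 4. Only barcodes with 500 genes or more and no more than 50% mitochondrial UMIs were gated. They gave 247 cells in the CA3 library and 276 in the vehicle library, 523 of the 3261 barcodes kept and of 3691 in all. Early cells (10 or more on Slc5a2 and Slc5a12, 322 CA3 and 371 vehicle) and late cells (under 2, 314 CA3 and 438 vehicle) passed the other limits and are the zones on either side.

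Both libraries came from kidneys of female C57Bl/6 mice, 9 weeks old, of the genotype Pax8.rtTA;TetO.Cre;R26.FUCCI2aR, and all had undergone rhabdomyolysis, the breakdown of skeletal muscle that injures kidney tubules. In such mice Pax8 drives an inducible Cre in tubule epithelium, and Cre switches on a cell cycle reporter. The CA3 mice received CA3, a compound that is described as inhibiting YAP1, a coactivator of growth genes, and the vehicle mice its carrier solution. There was 1 library per group, so no test between groups was possible. Intervals below are 95% intervals that cover counting error only. The labels give no dose, no time after injury and no number of animals for a library. Levels are UMIs summed over the cells of a zone in 1 library and given as CPM, that is per 1000000 UMIs with mitochondrial genes left out. They do not correct for gene length and are compared only within a gene.

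The proximal tubule takes back most of the filtered sodium, glucose, amino acids and phosphate. Its first stretch holds SGLT2 (Slc5a2), with high capacity for glucose, and the lactate carrier Slc5a12, and both fade along its length. Further down, organic anion carriers such as Slc22a6 and Slc22a8 bring drugs and waste products from blood into the cell, and fatty acid oxidation is the main source of energy throughout.

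Members held a median of 6316 UMIs and 1921 genes in the CA3 library, and 6144 UMIs and 1961.5 genes in the vehicle library. The median mitochondrial share was 24.2% in CA3 and 20.8% in vehicle members. In both libraries 1 same barcode sequence occurred, and it was a member in 1 of them. The doublet caller Scrublet marked 3 of 1494 kept CA3 barcodes, 1 of them a member, and 1 of 1767 kept vehicle barcodes, none of them a member, so doublets were kept. The phosphate carrier Slc34a1 (chromosome 13, 55398187 to 55415592, build mm10) and the endocytic receptor Lrp2 (chromosome 2, 69424340 to 69586065) are gate genes and were high by choice. Slc22a6, which the rule did not use, stood at 399 (368 to 433) CPM in CA3 and 318 (292 to 346) in vehicle middle cells. It was lower in early cells, at 177 in CA3 and 166 in vehicle, and higher in late cells, at 617 and 532. Slc22a8 was at 774 in CA3 and 644 in vehicle middle cells. Its early levels were 656 and 617, and its late levels 1035 and 861, CA3 first. Its middle levels were below the late ones, at 0.748 (0.695 to 0.804) in CA3 and 0.748 (0.695 to 0.804) in vehicle. Against early cells the ratio was 1.18 (1.09 to 1.27) in CA3, and in vehicle 1.04 (0.967 to 1.13), which holds 1. In Malat1-poor barcodes these were 1.15 and 0.955. The 4 markers of the second segment (Slc22a6, Slc22a8, Slc13a3 and Slc22a7) together summed to 1586 CPM in CA3 and 1259.6 in vehicle middle cells, 1077 and 969 in early cells, and 2191 and 1876 in late cells. The sum was thus between those of early and late cells, and highest in late cells. The 7 markers of the third segment summed to 382 CPM in CA3 and 358 in vehicle middle cells, 208 and 199.9 in early cells, and 743 and 839 in late cells. Of them Slc7a13 and Bcat1 were at 0 UMIs in middle cells of both libraries, and late cells held no more than 3 UMIs of either in each library. Acy3 and Slc5a8 made up most of the middle sum, at 276 and 84 CPM in CA3 and 241 and 76.4 in vehicle. Slc22a30 went the other way, at 3.97 and 4.05 CPM in middle, 20.5 and 24 in early and 4.67 and 7.44 in late cells, CA3 first. Atp11a was at 0.504 of its early level in CA3 and 0.843 (0.594 to 1.18) in vehicle middle cells.

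The gate rests on few molecules. Slc5a2 (chromosome 7, 128265657 to 128272430) and Slc5a12 (chromosome 2, 110597298 to 110647779) together gave 1 UMI in 67 CA3 and 65 vehicle members, 2 UMIs in 64 and 63, and 3 or more in 116 and 148. Slc5a2 itself was detected in 167 of 247 CA3 and 194 of 276 vehicle members, and the rest entered on Slc5a12 only. At the median depth of the members, 1 UMI was worth 2.16 per 10000 in CA3 and 2.1 in vehicle cells. The lowest members stood at 2.01 in CA3 and 2.06 in vehicle, against 1.95 and 1.96 for the highest cells just under the gate. The highest members stood at 9.81 in CA3 and 9.88 in vehicle, against 10.01 in both for the lowest cells above it. Among kept barcodes that missed the Slc34a1 and Lrp2 limit, 16% (12.5% to 20%) in CA3 and 22.7% (18.7% to 27.1%) in vehicle held an Slc5a2 or Slc5a12 UMI, at median depths of 5873 and 6511 UMIs. The range from 2 to 10 held 7.47% of them in CA3 and 10.7% in vehicle. How many members with 1 UMI carried free RNA was not tested. When zones were gated on a random share of the UMIs (each UMI with even odds) and levels were read from the rest, Slc5a2 was 361 CPM in CA3 and 328 in vehicle middle cells. Early cells then held 1018 and 972, and late cells 62 and 68.8. Slc5a2 is a gate gene and both sets of UMIs came from the same cells. The order was thus largely set by the gating and does not show a separate middle zone. Of the barcodes gated as middle this way, 80.1% in CA3 and 77.5% in vehicle were middle on all UMIs.

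Middle cells also differed from early cells in a gene that the gate did not use directly. Malat1 is a long noncoding RNA that stays in the nucleus, and barcodes fell into a group with under 50 Malat1 UMIs per 10000 and a group with 400 or more. Between them lay 6 middle cells in CA3 and 21 in vehicle, against 16 and 23 with 400 or more. These limits were chosen after the values were seen. The Cyr61 and Fosb limit took out mostly barcodes of the second group. Of proximal tubule barcodes at or over it, 200 of 223 in CA3 and 260 of 281 in vehicle had 400 or more. That limit alone kept 37 CA3 and 56 vehicle barcodes out of the middle zone. Its part in the shares below was not tested. Malat1-poor barcodes made up 225 of 247 middle cells in CA3 (91.1%, 86.8% to 94.3%) and 232 of 276 in vehicle (84.1%, 79.2% to 88.2%). Among early cells they were only 47.5% in CA3 and 46.6% in vehicle, and among late cells 87.6% and 86.1%. Xist, the nuclear RNA of the inactive X chromosome, separated the same groups in these female cells. Malat1-poor members held 12 Xist UMIs in all in CA3 and 11 in vehicle, while the 16 and 23 Malat1-rich members held 702 and 769. Malat1-rich members were also deeper, with medians of 11207.5 UMIs in CA3 and 10132 in vehicle, against 6152 and 5796.5 in Malat1-poor members. Their medians of Slc5a2 and Slc5a12 were 6.63 per 10000 in CA3 and 6.19 in vehicle, against 4.5 and 5.12 in Malat1-poor members. Zones are compared below over all barcodes, with values over Malat1-poor barcodes beside the counts of genes and many of the single genes, and what made these barcodes poor in nuclear RNA was not tested.

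**Figure D1:**
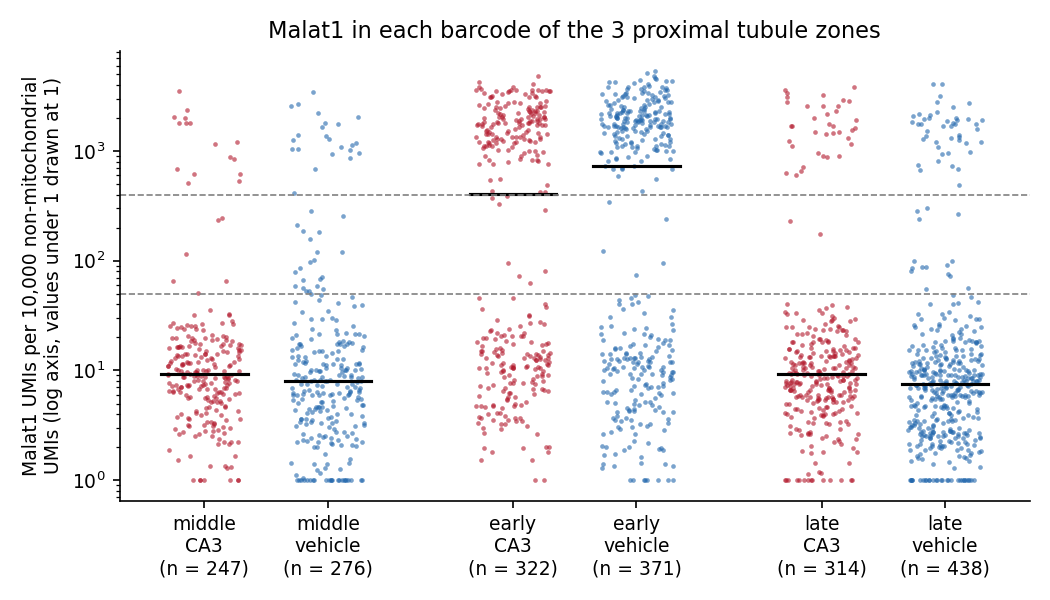
Malat1 UMIs per 10,000 non-mitochondrial UMIs (log axis) in each barcode of the middle, early and late zones, CA3 in red and vehicle in blue, with black bars for medians and dashed lines at 50 and 400. Middle and late barcodes lie mostly under 50, at medians of 9.22 and 8.08 for CA3 and vehicle middle cells, whereas early barcodes are split between both groups.

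Middle cells were 247 of 883 cells of the 3 zones in the CA3 library (28%, 25% to 31.1%, exact Clopper-Pearson interval), and 276 of 1085 in the vehicle library (25.4%, 22.9% to 28.1%). The intervals overlapped. Of all kept barcodes they were 16.5% in CA3 and 15.6% in vehicle. With Malat1-poor barcodes alone the shares were 34.5% in CA3 and 29.7% in vehicle. With 1 library per group the spread between animals is not known.

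Against late cells, similar numbers of genes were higher and lower in the middle zone, with Gatm and Slc7a7 among the higher and Napsa and Hpd among the lower. A gene was counted as higher or lower here when it had at least 30 UMIs in the 2 zones of each library, differed by 1.5 times or more in both libraries and neither interval held 1. The zones were cut by measured values, so these counts are descriptions. Of 8073 genes measured, 149 (1.85%) were higher and 154 (1.91%) lower in middle than in late cells. Centring each ratio on the median gene moved the split to 115 higher and 192 lower. In Malat1-poor barcodes 197 were higher (2.76%) and 159 lower (2.23%), and 114 and 130 of them were the same genes.

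Genes above their late level included carriers and enzymes of the first segment. Gatm, the first enzyme of creatine synthesis (chromosome 2, 122594467 to 122611303), was at 3754 (3657 to 3853) CPM in CA3 and 3384 (3298 to 3472) in vehicle middle cells, against 1528 and 1596 in late cells. Middle cells stood close to early cells in this gene, with a middle over early ratio of 0.997 (0.964 to 1.03) in CA3 and 0.951 (0.92 to 0.982) in vehicle. Gpx3, the secreted glutathione peroxidase that the proximal tubule releases into plasma, was at 13069 in CA3 and 10918 in vehicle middle cells, against 6956 and 5500.2 in late cells. It lay between both zones, since early cells held 20133 and 18415. In Malat1-poor barcodes the ratios over early cells were 0.922 in CA3 and 0.952 in vehicle for Gatm, and 0.596 and 0.49 for Gpx3. Slc7a7, a basolateral exporter of cationic amino acids, was 2.52 times its late level in CA3 and 2.2 times in vehicle, and Slc6a19, the apical carrier of neutral amino acids, 2.13 and 2.55 times. The dipeptidase Dpep1 was 3.47 and 2.73 times its late level and the acetyl-CoA synthetase Acss1 3.05 and 2.71 times. Fabp3, a fatty acid binding protein, was at 3.39 times in CA3 and 7.28 times in vehicle. Ugt2b38, Clec2h and Spp2 completed the list, with ratios between 1.84 and 3.39.

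Genes below their late level included enzymes and carriers of the later segments. Napsa, an aspartic protease of lysosomes (chromosome 7, 44572380 to 44586862), was at 366 (336 to 397) CPM in CA3 and 307 (282 to 335) in vehicle middle cells. Late cells held 1738 and 2139, and early cells 140.4 and 88.7. The tyrosine breakdown enzyme Hpd was 0.234 of its late level in CA3 and 0.217 in vehicle, the pyrimidine breakdown enzyme Dpys 0.242 and 0.244, and Tmigd1, a membrane protein of the brush border, 0.272 and 0.184. Slc6a18, a glycine carrier, stood at 0.288 and 0.344 of the late level, and Slc5a8, a sodium-coupled carrier of lactate and short-chain fatty acids, at 0.337 and 0.274. Angiotensinogen (Agt), Cyp2j11 and the peroxisomal oxidase Hao2 lay between 0.214 and 0.415 of their late levels. The genes named in both directions kept their direction against late cells in Malat1-poor barcodes, in both libraries.

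Against early cells the counts depended on which barcodes were compared. Of 8763 genes measured, 546 (6.23%) were higher and 1022 (11.7%) lower in all middle barcodes. Leaving the 50 highest genes out of the denominator, Malat1 among them, moved the median gene by -0.14 in CA3 and -0.15 in vehicle on the log2 scale and the split to 168 higher and 1425 lower. Within Malat1-poor barcodes only 59 of 6344 genes (0.93%) were higher and 73 (1.15%) lower. Of these, 51 and 31 had also been called over all barcodes. Malat1-rich barcodes were 16 of 247 middle cells in CA3 and 23 of 276 in vehicle, against 161 of 322 and 193 of 371 early cells. The Malat1-poor values leave out these barcodes and those between both groups, and test fewer genes, and the part of each in the lower counts was not tested.

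The genes lowest against early cells were led by nuclear RNAs. Malat1 was 15350 CPM in CA3 and 21960 in vehicle middle cells, against 120036 and 128239.6 in early cells. Xist stood at 0.164 of the early level in CA3 and 0.16 in vehicle, its antisense partner Tsix at 0.149 and 0.122, and the paraspeckle RNA Neat1 at 0.138 and 0.211. The noncoding RNAs Kcnq1ot1 and Snhg11, and the genes Col27a1, Unc5c, Ccdc141 and Pnisr, lay between 0.0294 and 0.225. Tsix and Xist overlap, and whether counting used strand is not stated, so their UMIs cannot be told apart with certainty. In Malat1-poor barcodes Xist was 1.38 and 1.22 times its early level, Pnisr 1.73 and 1.87 times, and Malat1 0.805 and 0.801 times, CA3 first. The Xist values rest on the 12 and 11 UMIs given above.

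The 10 genes highest against early cells, in contrast, stayed above 1 in Malat1-poor barcodes. Several act in fatty acid metabolism and some are carriers, while others, such as the protease Napsa, are neither. Cyp4a14, a fatty acid hydroxylase that PPAR-alpha switches on (chromosome 4, 115486200 to 115496142), was at 202 (180.3 to 226) CPM in CA3 and 120.3 (105 to 138) in vehicle middle cells, against 48.6 and 28.3 in early cells. The ratios were 4.17 (3.38 to 5.16) and 4.25 (3.26 to 5.58) over all barcodes, and 3.01 (2.17 to 4.28) and 3.74 (2.39 to 6.12) over Malat1-poor barcodes. Its relative Cyp4a10 was 1.82 and 2.31 times the early level in Malat1-poor barcodes, the peroxisomal thiolase Acaa1b 1.92 and 2.28 times, and the acyl-CoA thioesterase Acot1 1.76 and 2.17 times. Acaa1b shares 26.3% of the 31-base words in its last 300 bases with Acaa1a, which can split counts between them. Slc5a8 was 4.12 and 3.75 times its early level in these barcodes and Slc5a10, a carrier of mannose and fructose, 1.97 and 3.3 times. Napsa, Tmigd1, Hao2 and Rdh16f2 lay between 1.63 and 4.2 times.

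**Figure D2:**
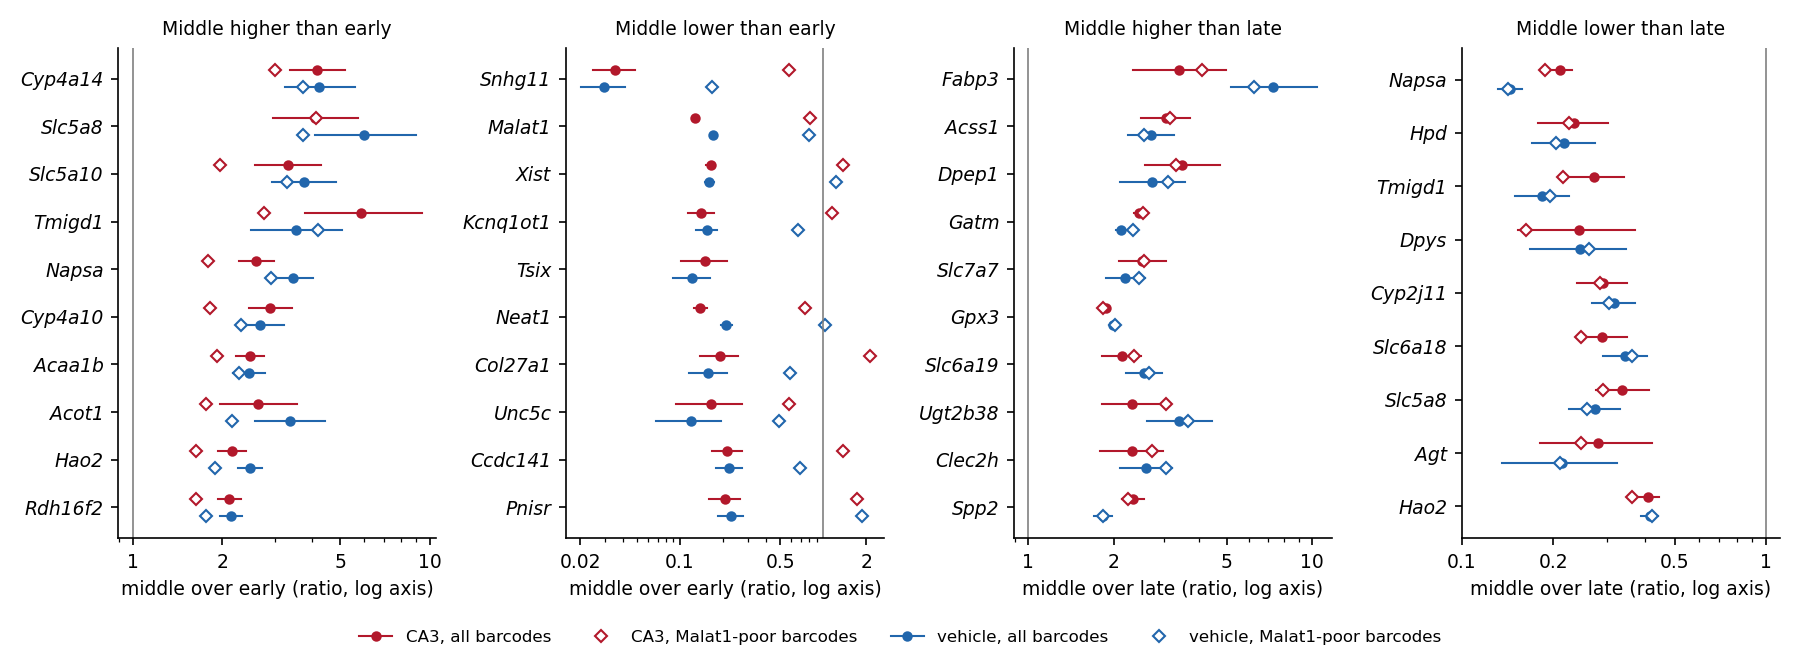
Middle over early (left panels) and middle over late (right panels) ratios of CPM on log axes for the genes named in each direction, with 95% counting intervals. Filled points are all barcodes and open diamonds Malat1-poor barcodes, CA3 in red and vehicle in blue: diamonds of the nuclear RNAs in the second panel move towards or past 1 (Xist to 1.38 and 1.22), while those in the other panels keep their side.

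Middle cells lay between both neighbours for most genes that separate them. Over Malat1-poor barcodes 270 of 6553 genes (4.12%) were higher in early than in late cells by the same limits, and the middle level lay between in both libraries for 193 of them (71.5%). Of 256 genes (3.91%) lower in early than in late cells it lay between for 219 (85.5%). On a scale from 0 at the late to 1 at the early level, the median position of the middle cells was 0.63 in CA3 and 0.58 in vehicle for the early-high genes, and 0.53 in both for the late-high genes. Over all barcodes the positions were 0.20 and 0.29 for early-high and 0.23 and 0.27 for late-high genes, CA3 first, and the middle level lay between for 54.1% of 1591 early-high genes (17.8% of 8954) and 73.8% of 764 late-high genes (8.53%). The part that cells gated into a neighbouring zone have in these positions was not tested. The genes were chosen by the gap between early and late levels in the same data, which favours a middle level inside it. No expected share was computed, so these shares are descriptions.

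Few genes peaked or dipped in the middle. Of 7979 genes, 32 (0.401%) were at least 25% above both neighbours in both libraries with no interval holding 1, and 26 (0.326%) lower by the same factor. Centring gave 23 and 36, and leaving out the 50 highest genes gave 10 and 36. The 8 highest were Ass1, the argininosuccinate synthase of arginine formation, the mitochondrial ADP/ATP carrier Slc25a4, Dazap2, the proton pump subunit Atp6v1g1, Arl3, the sulfur dioxygenase Ethe1, the endosomal GTPase Rab7 and Anp32e. Ass1 was at 2423 CPM in CA3 and 2100.4 in vehicle middle cells, against 1751 and 1513 in early and 1509.8 and 1521 in late cells. In Malat1-poor barcodes its middle over early ratio was 0.979 in CA3 and 0.998 in vehicle, and none of the 32 genes was called there, where 3 others were (0.0476%). The 8 lowest were Xist, Malat1, Col4a3, the cation extruder Slc47a1, Galnt11, Mlxipl, Trim7 and Dnase1. In Malat1-poor barcodes Slc47a1 and Dnase1, a secreted nuclease, stayed below both neighbours in both libraries. Dnase1 was at 0.558 and 0.567 of early and 0.561 and 0.808 of late cells, and Slc47a1 at 0.812 and 0.744 of early and 0.768 and 0.781 of late cells. Of the 20 genes called lower there (0.317%), 3 had also been called over all barcodes.

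Carriers for amino acids were often lower than in early cells, and carriers for organic ions often lower than in late cells. Lists of genes were counted by the ratio alone, past 1.5 times in both libraries. By that rule 7.01% of all genes were higher and 14.6% lower than in early cells, and 3.1% higher and 2.4% lower than in late cells. In Malat1-poor barcodes the shares were 2.13% and 1.78% against early cells, and 4.47% and 2.97% against late cells. Of 18 measured amino acid and peptide carriers, 8 were lower and 1 higher in middle than in early cells, with medians of -0.56 in CA3 and -0.60 in vehicle on the log2 scale, beside -0.05 and -0.03 over all genes. The proton-coupled carrier Slc36a1 stood at 0.379 and 0.317 of the early level, the aromatic amino acid carrier Slc16a10 at 0.434 and 0.401, and the neutral amino acid carrier Slc43a2 at 0.37 and 0.436. In Malat1-poor barcodes 6 of 17 were still lower. Against late cells 6 were higher and 6 lower of 20. Slc7a12, a carrier of the last segment, had 3 UMIs in CA3 and 9 in vehicle middle cells, against 176 and 268 in late cells. The vehicle middle UMIs lay in 1 cell, and 3 late CA3 cells held 89.2% and 3 late vehicle cells 41.4% of theirs. The peptide carrier Slc15a2 was at 0.416 and 0.423.

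Of 25 organic anion and cation carriers, 8 were lower and 1 higher than in late cells, and the medians were -0.46 in CA3 and -0.53 in vehicle, beside 0.06 and 0.08 over all genes. The cation carrier Slc22a2 stood at 0.523 and 0.467 of its late level, the urate carrier Slc22a12 at 0.634 and 0.603 and Slco1a6 at 0.432 and 0.38, while Slc22a23 was 1.68 and 1.59 times its late level. Against early cells 5 of 23 were higher and 4 lower, and in Malat1-poor barcodes 3 of 20 were higher and 0 lower. Slc22a6 was 2.25 and 1.91 times its early level, whereas Slc22a28 was at 0.297 and 0.261 and Slc22a29 at 0.283 and 0.452 of it. Both are related neighbours on chromosome 19, so reads could be split between them.

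Among sodium, phosphate, acid and water transport genes, the phosphate carrier Slc34a3 was at 0.252 and 0.285 of the early level, and Slc20a2 at 0.354 and 0.36. Carbonic anhydrase 4 (Car4) was 0.549 and 0.663 of its late level and carbonic anhydrase 2 (Car2) 1.55 and 1.83 times. Of 20 measured members, 4 were higher and 6 lower than in early cells. In Malat1-poor barcodes 1 of 18 was higher and 1 lower. Of 21, 2 were higher and 3 lower than in late cells. Among sugar and monocarboxylate carriers Slc5a1, the SGLT1 glucose carrier of later segments, was at 0.387 of its late level in CA3 and 0.243 in vehicle. Of 20 brush border enzymes, 7 were lower and 1 higher than in late cells. Neprilysin (Mme) stood at 0.338 and 0.276 and meprin alpha (Mep1a) at 0.556 and 0.478. Of endocytosis and lysosome genes, 3 of 21 were lower than in early cells (3 of 20 in Malat1-poor barcodes) and 1 higher and 1 lower of 20 against late cells, with Hexa, a lysosomal hexosaminidase, 3 and 2.26 times its late level.

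Fatty acid oxidation genes and PPAR-alpha targets were often higher than in early cells and lower than in late cells. Of 27 measured, 12 were higher and 0 lower than in early cells, and of 29, 12 were lower and 0 higher than in late cells. In Malat1-poor barcodes 5 were higher than in early cells and 11 lower than in late cells. The median over early was then 0.38 in CA3 and 0.36 in vehicle, and over late -0.41 and -0.61. Slc27a2, a peroxisomal acyl-CoA synthetase, stood at 0.462 and 0.444 of its late level.

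Other metabolic lists lay above early cells over all barcodes but near them in Malat1-poor barcodes. Nuclear respiratory chain genes had a median of 0.53 over early cells in CA3 and 0.53 in vehicle, with 3 of 23 higher. In Malat1-poor barcodes the medians were -0.03 and -0.04, with 0 higher. Haem, iron and oxidative stress genes had medians of 0.10 and 0.14 in Malat1-poor barcodes, beside 0.46 and 0.53 over all barcodes, and gluconeogenesis genes 0.09 and 0.11, beside 0.48 and 0.38. Of 30 amino acid and creatine metabolism genes, 3 were higher and 5 lower than in late cells. The kynurenine aminotransferase Aadat stood at 0.206 and 0.224 of its late level, and Dmgdh, which breaks down dimethylglycine, at 0.399 and 0.375. Glutathione and xenobiotic enzymes were split, 9 of 26 higher and 2 lower than in early cells, and 2 higher and 4 lower of 26 against late cells. In Malat1-poor barcodes 1 of 26 was higher and 2 lower than in early cells. Against late cells, the counts of the carrier lists, brush border enzymes, endocytosis, amino acid metabolism and glutathione lists each moved by at most 1 in Malat1-poor barcodes. Gstm1, a glutathione transferase, was 2.04 and 1.91 times its early level, and Cyp2e1, a cytochrome P450 of small solvents, 0.47 and 0.337 of its late level.

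**Figure D3:**
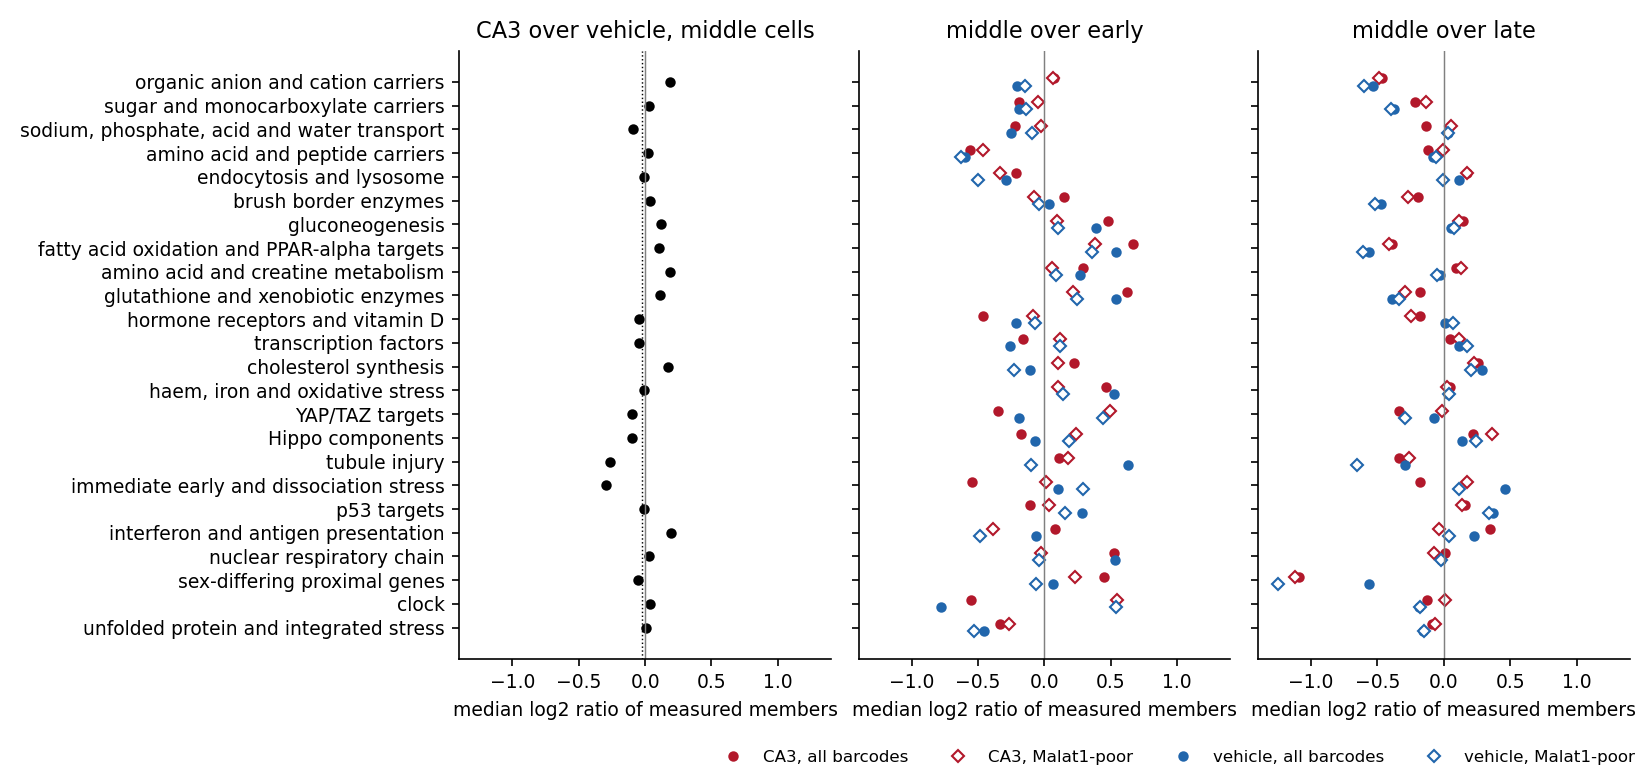
Median log2 ratio of the measured members of each gene list with 10 or more measured members: CA3 over vehicle in middle cells (left, dotted line at the median of all genes), middle over early and middle over late. Filled points are all barcodes and open diamonds Malat1-poor barcodes, CA3 in red and vehicle in blue: fatty acid oxidation genes lie above early and below late in both, while respiratory chain genes lose their distance from early cells among Malat1-poor barcodes.

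Some genes followed the gate value within the middle gate, and others did not. Members were divided at 4 and 6 on Slc5a2 and Slc5a12, which gave 107, 48 and 92 CA3 cells and 94, 64 and 118 vehicle cells from the lowest to the highest bin. Napsa was at 628, 222 and 158 CPM in CA3 cells and at 514, 333 and 146 in vehicle cells, in order of the gate value. Tmigd1 was at 99.9, 54.8 and 18.4 in CA3 and 92.3, 71.9 and 37.2 in vehicle cells. Both were lower at higher gate values in each library. Dpep1 was highest in the top bin, at 78.9, 121 and 143 in CA3 and 82.9, 78.7 and 121 in vehicle cells. Gpx3 was higher from bin to bin, at 11307, 12509 and 15434 in CA3 and 9131, 10649.7 and 12339 in vehicle cells. Fabp3 showed no such order, at 66.1, 95.1 and 64.2 in CA3 and 119, 108 and 121 in vehicle cells. Slc22a8 had no common order either, at 896, 556 and 773 in CA3 and 603, 638 and 677 in vehicle cells. Cyp4a14 was lowest in the middle bin in both libraries, at 306, 80.7 and 162 in CA3 and 154, 94.4 and 112 in vehicle cells. In vehicle its intervals in the upper 2 bins overlapped. Slc22a6 was lowest in the middle bin in CA3 only. Malat1-rich barcodes numbered 4, 3 and 9 in the CA3 bins and 6, 5 and 12 in the vehicle bins.

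**Figure D4:**
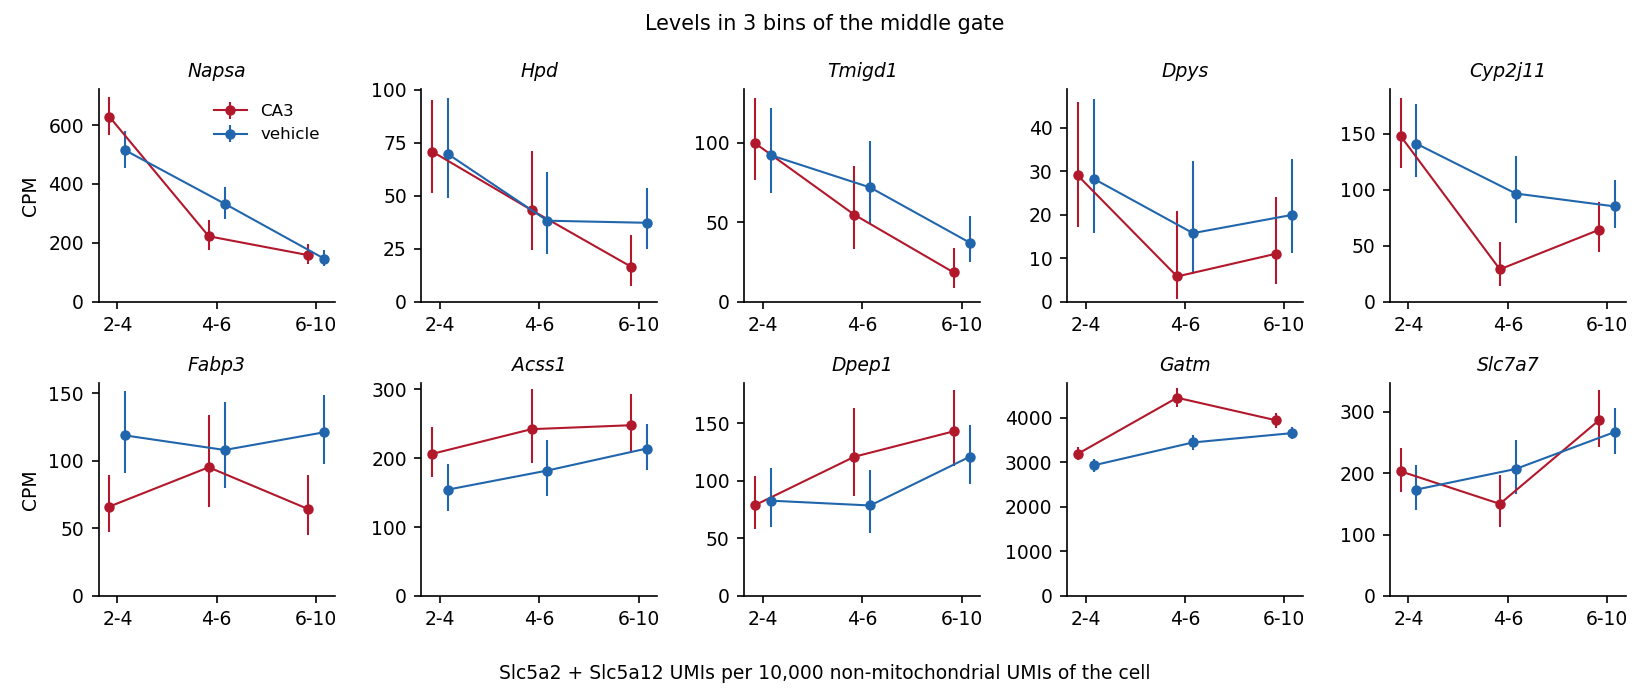
CPM with 95% counting intervals in 3 bins of Slc5a2 and Slc5a12 within the middle gate, for the first 5 genes named as lower (top) and higher (bottom) than in late cells, CA3 in red and vehicle in blue. Napsa and Tmigd1 are lower from bin to bin in both libraries, Napsa at 158 in CA3 and 146 in vehicle cells of the highest bin, and Dpep1 is highest in the last bin in both.

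The rule used no difference between CA3 and vehicle cells, and a few metabolic genes were higher in CA3 middle cells. Of 8125 genes measured in middle cells, 158 (1.94%) were at least 1.5 times higher in CA3 with an interval above 1, and 300 (3.69%) as far lower. With 1 library per group this compares 2 libraries, and differences between animals or preparations cannot be told apart from the treatment. Many of the lower genes rested on few barcodes: for 86 of the 300, and 16 of the 158, over 30% of the UMIs in the higher library lay in 3 cells. In Malat1-poor barcodes the counts were 177 (2.43%) and 156 (2.15%) of 7269, and 96 and 99 of these genes were the same.

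Gstp1, a glutathione transferase that detoxifies reactive compounds (chromosome 19, 4035407 to 4037985), led the genes higher in CA3. It was at 120.3 (103 to 139) CPM in CA3 and 32.4 (24.5 to 42.1) in vehicle middle cells, from 182 and 56 UMIs, a ratio of 3.71 (2.74 to 5.11). Its last 300 bases share all their 31-base words with Gstp2, for which 3 UMIs were counted in each library, so the count is uncertain between the copies. The ratio was 3.33 (2.43 to 4.64) in early and 3.29 (2.65 to 4.11) in late cells, and the 3 intervals overlapped. Pck1, which commits carbon to gluconeogenesis (chromosome 2, 173153048 to 173159273), was at 2235 (2160.2 to 2312) in CA3 and 1348 (1293 to 1403) in vehicle middle cells, a ratio of 1.66 (1.57 to 1.75). In Malat1-poor barcodes it was 1.55 (1.46 to 1.64), in early cells 1.54 (1.48 to 1.61) and in late cells 1.34 (1.29 to 1.4). Cyp2e1 was at 106 (90.6 to 124) in CA3 and 41.7 (32.6 to 52.5) in vehicle middle cells, a ratio of 2.56 (1.92 to 3.42), and its late ratio was 1.83 (1.58 to 2.12). In early cells it went the other way, at 0.708 (0.524 to 0.952). Cyp2e1 shares 47% of these words with other genes.

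The fatty acid hydroxylases Cyp4b1 and Cyp4a14 were 1.83 and 1.68 times their vehicle level in CA3 middle cells, the mitochondrial prohibitin Phb 1.64 times, the HSP90 activator Ahsa1 1.81 times, Usp50 1.77 times and Erh 2.16 times. Erh and Ahsa1 share 93.7% and 76.3% of their end words with gene copies. Eno1, Usmg5 and Tmem256 had intervals above 1 but stayed under 1.5 times, at 1.47, 1.42 and 1.45. In Malat1-poor barcodes the 12 genes lay between 1.34 and 3.67.

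Genes lower in CA3 middle cells were led by Nme2, a nucleoside diphosphate kinase, at 137 (119 to 157) CPM in CA3 and 253 (229.7 to 278) in vehicle cells, a ratio of 0.541 (0.457 to 0.64). Its end shares 98.1% of words with other gene models, among them a joint model with its neighbour. Nme7 was at 0.595 (0.476 to 0.742), the urokinase Plau at 0.508 (0.341 to 0.745) and the cyclin-dependent kinase inhibitor Cdkn1b at 0.514 (0.344 to 0.754). The nuclear envelope protein Tor1aip1 was at 0.551, the mitochondrial ribosome protein Mrpl3 at 0.538, Tmed7 at 0.575, Bod1l at 0.579 and Fabp3 at 0.617. Tmed7 shares all its end words with Ticam2. The sodium pump subunit Atp1b1, at 0.725, and Hao2, at 0.715, had intervals below 1 but did not pass 1.5 times. All these genes but Malat1 were also below 1 in Malat1-poor barcodes. Malat1 was 0.699 over all barcodes and 1.07 over Malat1-poor barcodes.

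**Figure D5:**
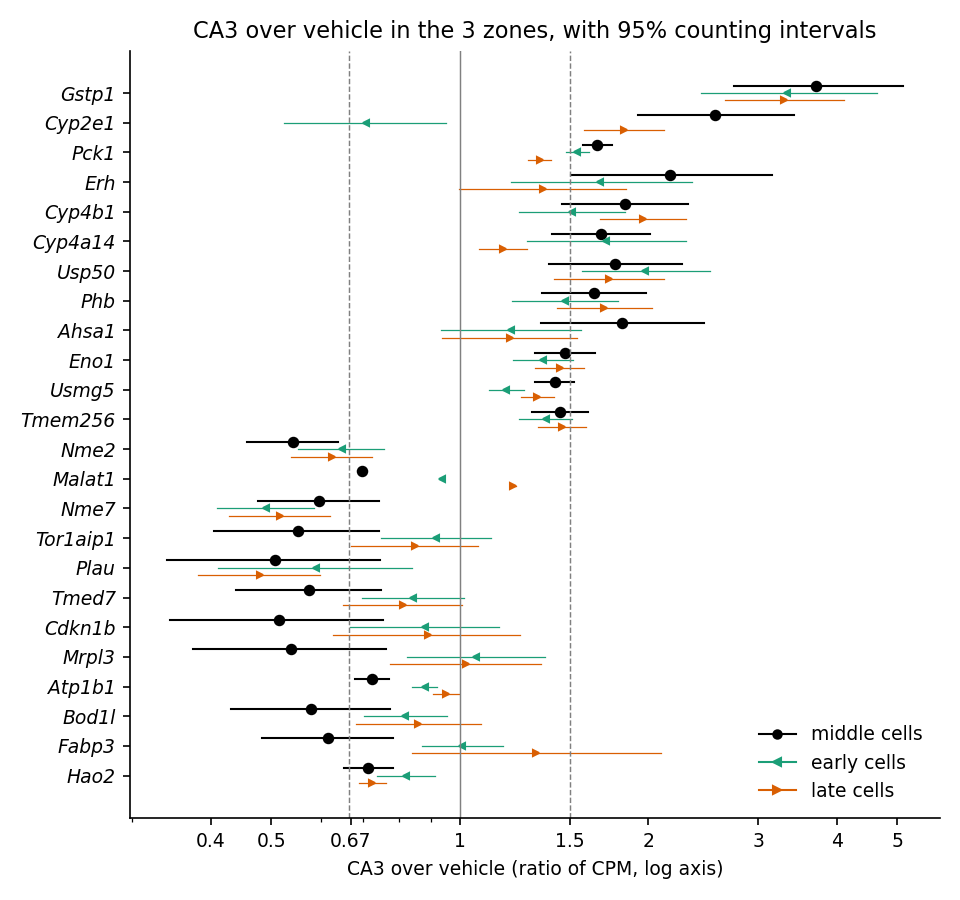
CA3 over vehicle ratio of CPM (log axis) with 95% counting intervals for the 12 genes named in each direction, in middle (black), early (green) and late (orange) cells, with dashed lines at 1.5 times in either direction. Gstp1 lies above 3 in each zone and Nme2, Nme7 and Plau lie below 0.67 in each, whereas Cyp2e1 is 2.56 in middle and 0.708 in early cells.

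Gene lists showed small shifts between the libraries. By the ratio alone, 4.06% of all genes were past 1.5 times higher and 7.24% as far lower in CA3, and the median of all genes was -0.02 on the log2 scale. Cholesterol synthesis genes had a median of 0.18, with 3 of 21 higher and 0 lower. Fdps, which makes farnesyl diphosphate, was at 1.75 (1.246 to 2.48). Amino acid and creatine metabolism had a median of 0.19, with 2 of 30 higher, among them the glycine decarboxylase Gldc at 1.53 (1.19 to 1.97). Gluconeogenesis had 1 of 12 higher, which was Pck1, while G6pc, which releases free glucose, was at 1.35 (1.24 to 1.48). Fatty acid oxidation and PPAR-alpha targets had 2 of 27 higher, the hydroxylases above. Of 23 nuclear respiratory chain genes and 17 amino acid carriers, 0 passed 1.5 times in either direction, with Ndufa1 at 1.31 (1.2 to 1.43) and Slc36a1 at 1.19 (0.854 to 1.65). Among organic ion carriers 1 of 22 was lower, Slc22a29 at 0.615 (0.412 to 0.907), and the dicarboxylate carrier Slc13a3 was at 1.39 (1.23 to 1.56). The peptidase Ggt1 was at 1.43 (1.29 to 1.6). Genes encoded in mitochondria were all within 1.5 times, with mt-Nd3 at 1.49 (1.45 to 1.53).

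The RNAs of YAP1 and its partner TAZ (Wwtr1) were scarce in both libraries. Yap1 had 31 and 35 UMIs in CA3 and vehicle middle cells, a ratio of 1.01 (0.604 to 1.69), and Wwtr1 93 and 92 UMIs, a ratio of 1.16 (0.857 to 1.56). Of 24 YAP/TAZ targets 10 were measured, 0 higher and 2 lower in CA3, and the median was -0.10. Ctgf had 0 UMIs in both libraries, which allows up to 3 in each, and Cyr61 was held low by the gate. Nuak2, a stress kinase, was at 0.614 (0.447 to 0.837) and Myof at 1.14 (0.853 to 1.53). None of the 15 measured Hippo components passed 1.5 times, with Tead1 at 0.777 (0.585 to 1.03) and Wwc1 at 0.787 (0.627 to 0.987).

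The injury markers Havcr1 and Lcn2 were scarce in these cells. Havcr1, the tubule injury marker KIM-1, had 3 UMIs in CA3 and 0 in vehicle middle cells, and Lcn2, which codes for the injury marker NGAL, 4 and 9, too few for a comparison. Of 12 measured injury genes 0 were higher and 4 lower in CA3. Integrin beta 6 (Itgb6), which activates TGF-beta, was at 92.6 (77.9 to 109) CPM in CA3 and 144 (127 to 163) in vehicle cells, a ratio of 0.643 (0.519 to 0.793). In Malat1-poor barcodes the ratio was 0.638. Clu, a secreted chaperone, was at 16 UMIs in CA3 and 344 in vehicle cells, but 304 of the vehicle UMIs lay in 3 barcodes. No gene of the G2 and M phase list was measured, and of 7 S phase genes 1 was higher.

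Immediate early genes showed the same concentration. Of 18 measured, 8 were lower and 0 higher in CA3. Fos was at 0.302 with 128 of its 174 vehicle UMIs in 3 barcodes, and Egr1 at 0.472 with 133 of 172. Junb, another early-response factor, was at 0.344. In Malat1-poor barcodes Fos was at 1.41, Egr1 at 1.81 and Junb at 2.21, so all 3 ratios turned direction. Fos then rested on only 31 UMIs in CA3 and 22 in vehicle cells, and Egr1 on 54 and 30. The heat shock gene Hspa1b had 7 UMIs in CA3 and 53 in vehicle cells. In Malat1-poor barcodes it had 5 and 15, and its ratio of 0.335 stayed below 1. The gate on Cyr61 and Fosb removed cells high in such genes from both libraries.

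RNA of other cell types moved with some of these genes. Markers of the thick ascending limb summed to 132 UMIs in CA3 members and 930 in vehicle members, of which 557 lay in 3 barcodes, and those of connecting and principal cells to 96 and 709, of which 582 lay in 3. No list of markers outside the proximal tubule reached 20 UMIs in more than 6 members of either library. The 3 richest vehicle barcodes held 1189 of 1346 UMIs of Klk1, a protease of the connecting tubule, and the CA3 members 158 in all, a gene chosen after its values were seen. Without members that held 20 or more UMIs of such markers, 4 in CA3 and 10 in vehicle, 168 genes were higher and 203 lower in CA3. Mononuclear phagocyte markers summed to 194 UMIs in CA3 and 96 in vehicle members, 74 and 32 of them in 3 barcodes. Of these UMIs, 152 in CA3 and 82 in vehicle were of Cd74, the class II invariant chain, which is on that list. Cd74 was at 2.12 (1.61 to 2.81), with 73 of its 152 CA3 UMIs in 3 barcodes, and H2-Ab1 at 1.68 (1.253 to 2.28). The part of RNA of other cell types in the lower counts of injury and immediate early genes was not tested.

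For receptors, transcription factors and other lists the libraries were likewise compared by the ratio alone. Of 15 hormone receptor and vitamin D genes, 4 were lower in CA3. Klotho (Kl), the co-receptor of FGF23, was at 0.577 (0.507 to 0.656) over all and 0.852 over Malat1-poor barcodes. Of its 717 vehicle UMIs, 247 lay in 3 barcodes. The angiotensin receptor Agtr1a was at 0.635 (0.42 to 0.947) over all and 0.64 over Malat1-poor barcodes. Of 25 transcription factors 4 were higher and 2 lower. Esrra, an orphan nuclear receptor that drives mitochondrial genes, did not pass 1.5 times. It was at 0.676 (0.534 to 0.851) over all and 0.669 over Malat1-poor barcodes. The clock factor Tef was at 1.54 (1.14 to 2.08), with 3 of 11 clock genes higher. Haem, iron and oxidative stress genes had 0 of 24 higher and 1 lower. Of 11 interferon and antigen presentation genes 4 were higher and 2 lower. Of 12 p53 targets 2 were lower, and of 15 unfolded protein and integrated stress genes 1 was higher. The p53 target Ccng1, at 0.699 (0.557 to 0.874), did not pass 1.5 times.

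Members of the same lists also differed between zones. The prolactin receptor Prlr was at 0.417 of its late level in CA3 and 0.286 in vehicle, and 2 of 14 hormone receptors were lower than in late cells. Cyp24a1, which degrades vitamin D, was at 0.149 of its early level in CA3 and 0.299 in vehicle, and at 0.274 and 0.397 in Malat1-poor barcodes. The transcription factor Maf was 1.73 and 1.56 times its late level, and close to its early level in Malat1-poor barcodes, at 0.979 and 1.01. The stress factor Ddit3 was at 0.283 and 0.427 of its early level over all barcodes but at 1.03 and 1.26 over Malat1-poor barcodes.

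Genes that differ between the sexes were often lower than in late cells. Kap, the androgen-regulated protein of the proximal tubule, had 441 UMIs in CA3 and 713 in vehicle middle cells, but 429 and 690 of them lay in 3 barcodes. Late cells held 2372 and 3765 CPM and early cells 11.8 and 19.3, CA3 first. Most of the middle level thus came from few barcodes. Of 15 measured genes of the list 7 were lower and 1 higher than in late cells.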

How the data were processed

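Single-cell suspensions of kidney were run on the 10x Chromium 3' system and sequenced on a NextSeq500, per the labels' protocols. The deposited files hold counts of UMIs per gene and barcode, which Cell Ranger 3.0.1 produced on build mm10, per the submitters' processing notes. From these counts barcodes were gated and UMIs summed per zone and library with python 3.11.15, numpy 2.4.6, pandas 2.3.3, scipy 1.17.1 and scanpy 1.11.5 (Scrublet). Ratios carry exact conditional binomial intervals, levels exact Poisson intervals and shares Clopper-Pearson intervals. UMIs are molecules, but the intervals hold counting error only, and with 1 library per group no test was made. Summed depth was 1512382 UMIs in CA3 and 1728279 in vehicle middle cells.

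Named genes had 50 CPM or more (UMIs per 1000000), detection in 10% of cells and at most 30% of UMIs in 3 cells, and were ranked by the interval bound nearest 1: the first 12 per direction between libraries, 10 between zones and 8 against both neighbours. Of each of 27 gene lists up to 4 members with the largest ratios and 100 or more UMIs could be named. The members, rule and lists were chosen with earlier results of these data known. The 14 alternatives covered filters, gates, doublets, weights, scaling, thinning and Malat1 classes. Results of 2 genes are not reported here.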

Additional observations from a re-analysis of the deposited data

Results flagged for a closer look

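Cyp2e1 was higher in CA3 than in vehicle middle cells, at 2.56 times, but lower in CA3 than in vehicle early cells, at 0.708 times, from 1 library each. The difference between the zones was not tested.

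Reporter sequences added to the reference were measured by the same rule as genes. MbmCerulean was thus among the 158 counted as higher in CA3 middle cells, while tdimer2 stayed under 30 UMIs. The labels name the reporter FUCCI2aR and do not state how these sequences relate to it. MbmCerulean, a membrane-bound cyan protein, had 56 UMIs in CA3 and 12 in vehicle middle cells, a ratio of 5.33 (2.83 to 10.9). It was also higher in CA3 in early cells, at 2.13, and in late cells, at 3. The red protein tdimer2 had 12 and 2 UMIs, a ratio of 6.86 (1.53 to 63.1). Its ratios were 5.48 in early and 19.9 in late cells, the latter from 15 and 1 UMIs. No cause was tested.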

How the results depend on the processing

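No paired analysis was possible because each group has 1 library. Leaving out a library would leave a group empty, so it was not run. Over 14 alternatives 2700 values were compared, which were ratios of named genes and median CA3 over vehicle ratios of gene lists. Of these, 2162 stayed within their interval, 508 moved beyond it and 30 changed direction. A change of direction was scored only for genes that passed the limits in the main setting. Any other value that turned, such as Malat1 between the libraries, is among the 508. No cause was tested unless given.

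With stricter filters on barcodes (1000 genes or more, no more than 25% mitochondrial UMIs), 167 genes were lower in CA3 than in vehicle middle cells, 905 higher than in early cells, and 63 and 49 highest and lowest in the middle. With zones gated after thinning to 2000 UMIs the shares of middle cells were 17.9% in CA3 and 14.2% in vehicle, since 1 UMI was then worth more than the lower limit and 2 reached the upper one. Then 145 genes were lower in CA3, 212 higher and 631 lower than in early cells, and 6 lowest in the middle. Xist was 1.05 times its late level in CA3, and Malat1 1.05 times in CA3 and 1.03 times in vehicle. Gating on randomly drawn UMIs, with levels from the rest, gave 189 genes lower in CA3, 327 higher and 552 lower than in early cells, 78 higher than in late cells, and 12 and 6 highest and lowest in the middle, with Malat1 at 1.04 of its late level in vehicle.

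Without Scrublet doublets and cells with 3 or more UMIs of other cell types, 186 genes were lower in CA3 and 20 highest in the middle. With cells weighted equally, 241 were higher in CA3, 331 higher than in early cells and 19 highest in the middle. Without the 50 highest genes in the denominator, 168 were higher than in early cells and 10 highest in the middle. Without a filter on UMIs 486 were lower in CA3, with more genes tested. A gate of 3 to 8 gave 50 highest and 40 lowest in the middle.

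Malat1-poor barcodes alone, chosen after seeing the data, gave shares of 34.5% in CA3 and 29.7% in vehicle, 156 genes lower in CA3, 59 higher and 73 lower than in early cells, and 3 highest in the middle. Against early cells Xist was 1.38 in CA3 and 1.22 in vehicle, Pnisr 1.73 and 1.87, Mlxipl 1.51 and 1.67 and Trim7 2.88 and 1.6. Ass1 was 0.979 and 0.998, Slc25a4 0.977 and 0.996 and Atp6v1g1 0.982 and 0.977. In CA3 alone Kcnq1ot1 was 1.15, Col27a1 2.11, Ccdc141 1.38, Ethe1 0.866 and Galnt11 1.02 against early cells. In vehicle alone Neat1 was 1.03 and Col4a3 1.01. Against late cells Xist was 1.17 in CA3 and 1.53 in vehicle, and Malat1 1.07 in vehicle.

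Depth limits what the gate can separate, since 1 or 2 UMIs placed many members.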
